A study of Mus musculus with 6 samples.

Results

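The genes described here had their lowest level in wild-type lymphoid-primed multipotent progenitors (LMPP) and a higher one both in the same fraction without E2A and in the stem cell fraction that comes before it. They were chosen from 18194 genes on 6 Affymetrix arrays, each gene read by its single-symbol probe set with the highest mean. A gene was taken when both WT LMPP arrays lay below the 4 other arrays, when its WT LMPP mean was at least 0.5 (log2) below both other group means, and when both those means were above 5 (log2). Of 119 genes that met these conditions, 8 were set aside by name (Clec4d, Clec4e, Ffar2, Lypd6b, Muc13, Prtn3, Ptprf and S100a4), which left 111 members. The same conditions turned upside down, with WT LMPP highest and above 5, were met by 124 genes. Since the measured values chose the members, their low level in WT LMPP is a description and carries no test.

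RNA came from sorted bone marrow cells of adult mice in 3 groups of 2 arrays. E2A-KO LMPP came from E2A-knockout mice on a C57BL/6 background and were gated as cells negative for lineage markers, positive for SCA1 and KIT, and high for FLT3. WT LMPP were cells of the same gate from C57BL/6 mice, and WT LSK FLT3- were wild-type cells that met the other gates but lacked FLT3. No knockout LSK FLT3- sample was analysed here, and a free-text label that calls every sample wild-type LMPP was set aside for the titles and source names. The labels give neither the number of mice behind an array, nor whether replicates are separate animals, nor how the E2A allele was made. P-values therefore reflect array-to-array spread, possibly technical.

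LSK FLT3- cells hold the hematopoietic stem cells, while LMPP have largely lost the path to red cells and platelets and keep those to lymphocytes, granulocytes and macrophages. The gene Tcf3 encodes the E2A proteins, helix-loop-helix factors that bind E-box motifs in DNA. They are best known for starting the B and T lymphocyte programs, and they can act on genes in both directions. The members are genes whose WT LMPP level lay below both the preceding wild-type stage and the same stage without E2A.

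On the arrays, Flt3 had 10.70 and 10.76 (log2 level) in E2A-KO LMPP, 10.80 and 10.80 in WT LMPP, and 8.87 and 8.76 in WT LSK FLT3-, and Kit lay at 8.47 to 10.38 on all 6. The 8 measured lineage-marker genes that the gate should leave out averaged 3.80 to 4.10 (log2 level) per array, close to the array medians of 3.90 to 4.04, and Cd3e was the highest at 5.03 to 5.89. The upper quartile of the probe set values was 5.78 and 5.79 for E2A-KO LMPP, 5.80 and 5.82 for WT LMPP, and 6.13 and 6.15 for WT LSK FLT3-. This difference in the value distribution bears on every comparison with WT LSK FLT3- below. In bulk RNA, fewer cells that express a gene and less RNA per cell cannot be told apart.

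E2A's binding motif was looked for first, in the 250 bases before and 50 bases after the start of each member that the RefSeq promoter table (GRCm38.p6) holds, which were 80 of 111 members with 105 windows. The E-box CAGCTG, which reads the same on both strands, was in 19% of the members' windows, in 16.3% of all 32851 windows and in 16.4% of the 18010 windows of measured genes. CACCTG, or its reverse complement CAGGTG, was in 17.1% of the members' windows, in 20.2% of all and in 20% of those of measured genes. Any E-box of the form CANNTG, which includes both, was in 70.5% of the members' windows, in 72.3% of all and in 67.4% of those of measured genes. The median GC content was 57.7% in the members' windows, 52.7% in all windows and 58.3% in those of measured genes, and the shares were not tested against each other. A match of these letters is not a binding site, and a window without them says nothing on E2A's binding elsewhere.
Of the members called higher in E2A-KO LMPP than in WT LMPP (adjusted p under 0.05), 5 held a CAGCTG or CACCTG box, on either strand, upstream of the start with at least 20 window bases on each side. Those stretches are shown 5′ to 3′ on the gene's strand, to show the letters E2A binds in their surroundings. The rule had used that comparison, and of the 5 genes only Chn2 kept its call on the 4 LMPP arrays alone. Capitals mark the E-boxes.
Chn2 (chr6:54264671-54264734, plus strand; the last E-box ends 144 bases before the start): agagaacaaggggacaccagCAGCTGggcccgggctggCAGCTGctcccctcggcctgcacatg
Pi4k2b (chr5:52741441-52741486, plus strand; 108 bases before): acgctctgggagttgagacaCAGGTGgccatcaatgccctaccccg
Wdr59 (chr8:111522218-111522263, minus strand; 131 bases before): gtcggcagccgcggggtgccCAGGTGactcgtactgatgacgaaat
Dhx40 (chr11:86807782-86807835, minus strand; 142 bases before): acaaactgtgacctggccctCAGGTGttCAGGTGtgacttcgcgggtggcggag
Vmp1 (chr11:86683566-86683611, minus strand; 63 bases before): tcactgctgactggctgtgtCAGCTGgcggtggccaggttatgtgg
Chn2 and Dhx40 each carried a pair of E-boxes in the stretch shown, and the others 1 each. Sequences are from RefSeq on GRCm38.p6.

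The dip was shallow in most members. The smaller of the 2 differences, the E2A-KO LMPP or the WT LSK FLT3- mean minus the WT LMPP mean, ran from 0.50 to 1.51 (log2), was under 0.6 in 59 members and reached 1 in 7. Their median level was 6.56 in E2A-KO LMPP, 5.94 in WT LMPP and 7.11 in WT LSK FLT3- (log2). A WT LMPP mean under 5, where arrays may compress differences, was found in 33 members. As deposited, E2A-KO LMPP stood between the other groups in 97 members and above WT LSK FLT3- in 14. The split depended on scaling, with 62 members below and 49 above WT LSK FLT3- with quantile normalization. With arrays centred on their medians it was 102 below and 9 above. As a share of the difference between WT LSK FLT3- and WT LMPP, the E2A-KO LMPP excess over WT LMPP had a median of 59.3% and ran from 18.9% to 160%, with 44 members under 50%. Next to the threshold, Mcph1 and Spns2 were just inside, with smaller differences of 0.502 and 0.503, and Cep78 and Adgrl4 just outside, at 0.499 and 0.497.

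**Figure D1:**
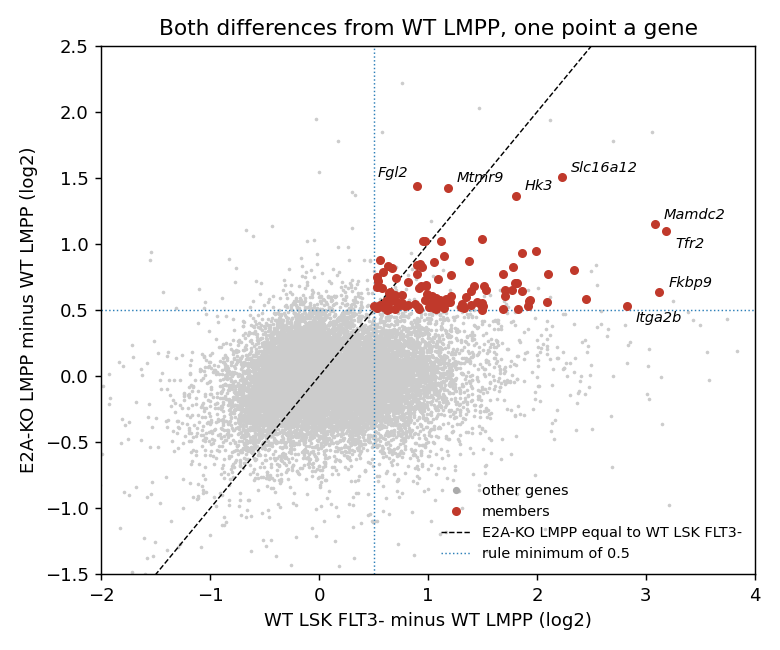
Difference from WT LMPP for each of 18194 genes (log2), with WT LSK FLT3- minus WT LMPP on the horizontal axis and E2A-KO LMPP minus WT LMPP on the vertical axis. The 111 members (red) lie above 0.5 on both axes, 97 of them below the dashed line of equal levels in E2A-KO LMPP and WT LSK FLT3-, and grey genes there missed another condition of the rule or were set aside by name. Genes beyond the axis limits are not drawn.

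The rule used 2 of the 3 comparisons, so the calls there describe the members and support nothing. In E2A-KO LMPP against WT LMPP, 26 members were higher at an adjusted p under 0.05 (limma, Benjamini-Hochberg over 18194 genes), 0 were lower, and 85 did not pass, where 0.379% of all genes were called higher and 0.995% lower. The members' median difference was 0.61 (log2), and that of all genes -0.02. In WT LMPP against WT LSK FLT3-, 109 members were lower, 0 were higher and 2, AA386476 and Mcph1, did not pass, where 23.7% of all genes were called lower and 10.4% higher, and the members' median difference was -1.07 against -0.01 for all genes. Of those 109 members, 78 kept their call with quantile normalization and 81 without either WT LSK FLT3- replicate. The count of 26 changed with each array left out, to 7 and 6 without E2A-KO LMPP replicates 1 and 2, 11 and 12 without WT LMPP replicates 1 and 2, and 5 and 5 without WT LSK FLT3- replicates 1 and 2. On the 4 LMPP arrays alone 5 of the 26 remained, Hk3, Mtmr9, Tfr2, Chn2 and Fgl2, with adjusted p of 0.0101 to 0.0348.

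The comparison that the rule left free was that of E2A-KO LMPP with WT LSK FLT3-, which differ in both stage and genotype. Here 53 members were lower in E2A-KO LMPP, 1 was higher and 57 did not pass, where 26.5% of all genes were called lower and 11.0% higher. The rule asks for E2A-KO LMPP and WT LSK FLT3- means above 5. Among the 8316 genes with both means above 5, 46.5% were called lower and 5.12% higher. As deposited, the members' share of 47.7% lower was thus near that of genes of like level. The median difference was -0.45 (log2) in the members, -0.39 in those 8316 genes and -0.02 over all genes, and 20 members were at least 1 lower. The size of this gap depended on how the fractions were scaled to each other. With quantile normalization of the 6 arrays the members' median was -0.04, with 25 lower and 8 higher. Of genes of like level 13.9% were then lower and 12% higher, with a median of -0.03. A larger share of members than of such genes was lower there and a smaller share higher, which was not tested. With arrays centred on their medians the members' median was -0.58, with 64 lower and 0 higher. Of genes of like level 59.6% were then lower and 3.5% higher, with a median of -0.52. The share of called genes that were higher moved alike, from 29.3% of all called genes as deposited to 44.0% with quantile normalization and 14.6% with centring. Without WT LSK FLT3- replicate 1 or 2, 33 and 31 members were lower. Of the 54 members called as deposited, 26 kept their call with quantile normalization.

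**Figure D2:**
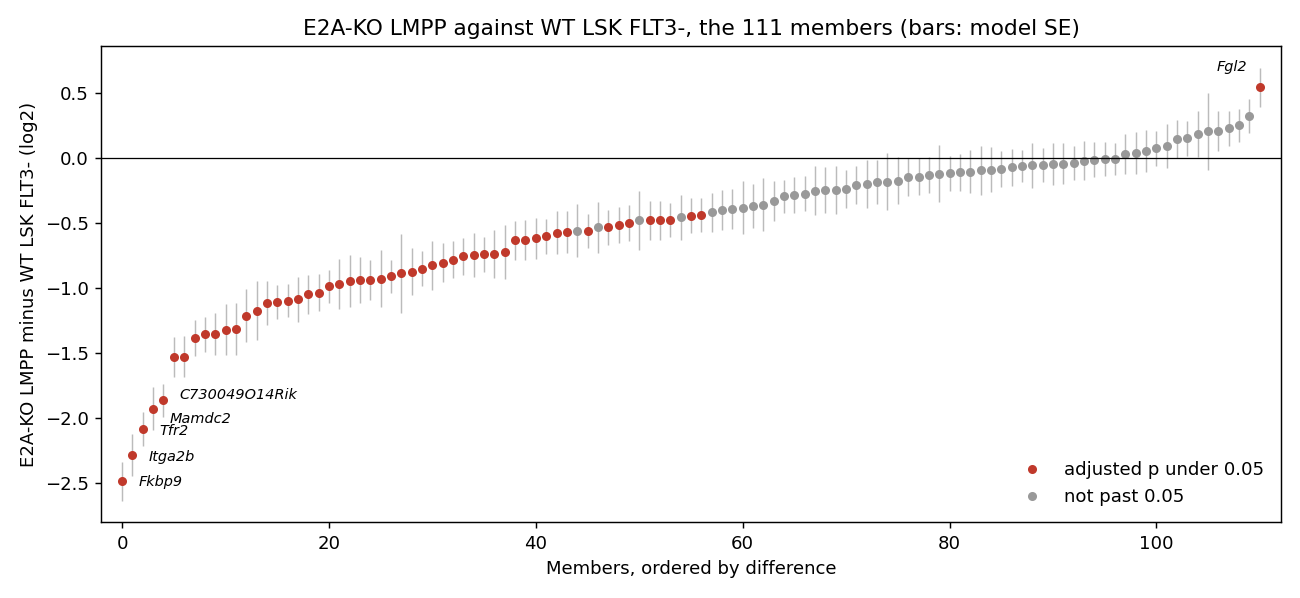
E2A-KO LMPP minus WT LSK FLT3- (log2) for each of the 111 members, ordered by size, with the model's SE as bars and members at an adjusted p under 0.05 in red. Differences run from -2.49 for Fkbp9 to 0.54 for Fgl2, with 53 members lower, 1 higher and 57 not past the threshold.

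The 5 largest gaps in that comparison were those of Fkbp9, Itga2b, Tfr2, Mamdc2 and C730049O14Rik, and Tfr2 and Mamdc2, with larger excesses over WT LMPP, are given with their roles. Fkbp9, a peptidyl-prolyl isomerase of the endoplasmic reticulum, had 7.23 and 6.99 in E2A-KO LMPP, 6.61 and 6.34 in WT LMPP, and 9.64 and 9.56 in WT LSK FLT3- (log2 level). Its difference between E2A-KO LMPP and WT LSK FLT3- was -2.49 (SE 0.15, adjusted p = 2.1e-05). The E2A-KO LMPP and WT LSK FLT3- arrays did not overlap, and the E2A-KO LMPP arrays were far closer to WT LMPP than to WT LSK FLT3-. Itga2b, the integrin chain of platelets and their precursors that is also on early progenitors, had 5.92 and 5.52 in E2A-KO LMPP, 5.23 and 5.14 in WT LMPP, and 8.09 and 7.93 in WT LSK FLT3-. Its difference from WT LSK FLT3- was -2.29 (SE 0.16, adjusted p = 4.5e-05), again with E2A-KO LMPP near the WT LMPP level. The unnamed transcript C730049O14Rik had 7.62 and 7.47 in E2A-KO LMPP, 6.97 and 6.96 in WT LMPP, and 9.41 and 9.41 in WT LSK FLT3-, a difference of -1.87 (SE 0.13, adjusted p = 4.1e-05).
Fkbp9, Itga2b and C730049O14Rik met the rule through a small excess in E2A-KO LMPP beside a steep difference between the wild-type stages. All 3 kept their calls with quantile normalization, at -2.13, -1.92 and -1.51.

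Surface receptors and adhesion molecules made up 5 members, and 4 of them were lower in E2A-KO LMPP than in WT LSK FLT3-, also with quantile normalization. Of genes of like level, 46.5% were called lower as deposited and 13.9% with quantile normalization. Tfr2, a transferrin receptor of liver and erythroid cells that senses iron, had 7.87 and 7.85 in E2A-KO LMPP, 6.78 and 6.74 in WT LMPP, and 10.05 and 9.85 in WT LSK FLT3- (log2 level). The arrays of each LMPP genotype were close together. E2A-KO LMPP was 2.14-fold above WT LMPP and still lower than WT LSK FLT3-, at -2.09 (SE 0.13, adjusted p = 2.6e-05). Itga6, the integrin chain of laminin receptors, which stem cells carry, had 7.55 and 7.53 in E2A-KO LMPP, 6.80 and 6.73 in WT LMPP, and 8.48 and 8.43 in WT LSK FLT3-, in the same order of groups (-0.91, SE 0.12, adjusted p = 0.000958 against WT LSK FLT3-). Vcam1, the adhesion molecule that binds integrin alpha-4, averaged 5.99, 5.33 and 7.11 in E2A-KO LMPP, WT LMPP and WT LSK FLT3-, a difference of -1.12 (SE 0.17, adjusted p = 0.00161) from WT LSK FLT3-. Its other probe sets, under 5 in each group, were highest in E2A-KO LMPP, at 4.64, 4.30 and 4.30, and 3.92, 3.64 and 3.43, in the same order.
Thy1, a small surface glycoprotein of T cells that mouse stem cells carry at a low level, differed from these genes. It had 5.57 and 5.99 in E2A-KO LMPP, 4.91 and 4.61 in WT LMPP, and 6.05 and 5.71 in WT LSK FLT3-. The E2A-KO LMPP and WT LSK FLT3- arrays overlapped, with a difference of -0.10 that did not pass (adjusted p = 0.704).
Among 20 genes of a list of integrins and adhesion molecules, to which Itga6 and Vcam1 belong, 10 were lower and 3 higher in E2A-KO LMPP than in WT LSK FLT3-, with a median of -0.32 (log2; with quantile normalization 8 lower, 5 higher and -0.04), and 2 were higher and 0 lower than in WT LMPP. The second of those 2 was Itgb7, whose chain pairs with integrin alpha-4 for homing to the gut, but it was lowest in WT LSK FLT3- (7.87 in E2A-KO LMPP, 7.05 in WT LMPP and 6.28 in WT LSK FLT3-) and so is no member. Of 13 megakaryocyte genes, 0 passed between the LMPP genotypes, with a median of 0.23. Without adjustment 5 had a p under 0.05 (limma). Itga2b, which the rule chose by this difference, Ppbp, Selp and Rab27b were higher in E2A-KO LMPP, and Thbs1 was lower. Against WT LSK FLT3-, 6 of the 13 were lower and 0 higher in E2A-KO LMPP (5 and 0 with quantile normalization). Their mean level was 4.59 and 4.68 in E2A-KO LMPP, 4.41 and 4.43 in WT LMPP, and 5.50 and 5.39 in WT LSK FLT3-, with 10, 10 and 6 of the 13 under 5. Vwf averaged 3.53 in E2A-KO LMPP, 3.28 in WT LMPP and 6.13 in WT LSK FLT3-. The mean of the list, Itga2b included, had the same order of groups as Itga2b. F2r, Thbs1 and Treml1 were lower in E2A-KO LMPP than in WT LMPP (-0.26, -0.52 and -0.05). The part of the list in the Itga2b result was not tested. The 12 bone marrow stroma genes, Vcam1 among them, averaged 4.77 to 4.95 on all 6 arrays, with 8 under 5 in each group.

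Secreted, granule and host defence genes gave 7 members. In E2A-KO LMPP, 5 were lower and 1 higher than in WT LSK FLT3- (46.5% and 5.12% of genes of like level). With quantile normalization Mamdc2 and Pglyrp2 were lower and Fgl2 higher. Fgl2, a fibrinogen-like protein that can cleave prothrombin and that macrophages and T cells make, was the member that was higher in E2A-KO LMPP than in WT LSK FLT3-. It had 7.66 and 7.55 in E2A-KO LMPP, 6.24 and 6.09 in WT LMPP, and 7.23 and 6.90 in WT LSK FLT3- (log2 level). The E2A-KO LMPP arrays lay above those of WT LSK FLT3-, and E2A-KO LMPP was 2.71-fold above WT LMPP. The difference from WT LSK FLT3- was 0.54 (SE 0.15, adjusted p = 0.0234), and it did not pass without E2A-KO LMPP replicate 1 or 2, without WT LSK FLT3- replicate 2 or with centred arrays, where adjusted p was 0.0511 to 0.20. With quantile normalization it was 0.98 (adjusted p = 0.00396).
Mamdc2, a secreted proteoglycan with MAM domains, had 5.87 and 6.26 in E2A-KO LMPP, 5.04 and 4.79 in WT LMPP, and 7.96 and 8.04 in WT LSK FLT3-. E2A-KO LMPP lay nearer to WT LMPP, at -1.93 (SE 0.17, adjusted p = 0.000112) against WT LSK FLT3-. Hp, which encodes the hemoglobin-binding protein haptoglobin of liver and neutrophil granules, had 5.49 and 5.50 in E2A-KO LMPP, 4.25 and 4.89 in WT LMPP, and 6.63 and 6.23 in WT LSK FLT3-. Its WT LMPP arrays were both under 5, and E2A-KO LMPP differed from WT LSK FLT3- by -0.93 (SE 0.22, adjusted p = 0.0109). Nkg7, a membrane protein of cytotoxic granules, had 9.11 and 8.84 in E2A-KO LMPP, 8.13 and 8.16 in WT LMPP, and 9.03 and 9.14 in WT LSK FLT3-. Its E2A-KO LMPP and WT LSK FLT3- arrays overlapped (-0.11, adjusted p = 0.544).
S100a6, a calcium-binding protein of the S100 family, had 5.74 and 6.00 in E2A-KO LMPP, 5.09 and 5.12 in WT LMPP, and 6.36 and 6.27 in WT LSK FLT3-, a difference of -0.45 (SE 0.14, adjusted p = 0.0327) from WT LSK FLT3-. Pglyrp2, an amidase that cuts bacterial peptidoglycan, averaged 5.38, 4.67 and 6.49 in E2A-KO LMPP, WT LMPP and WT LSK FLT3-, and the secreted neurotrophic protein gene Nenf 5.42, 4.84 and 6.00. Both were lower in E2A-KO LMPP than in WT LSK FLT3- (-1.11, adjusted p = 0.00047, and -0.58, adjusted p = 0.0239).
Some genes of mature myeloid cells ran the other way from Hp between the LMPP genotypes. Of 13 mature myeloid genes, 7 were lower and 0 higher in E2A-KO LMPP than in WT LMPP, with a median of -1.36, and the rest did not pass. Their mean level was 5.30 and 5.15 in E2A-KO LMPP, 6.57 and 6.54 in WT LMPP, and 6.09 and 6.15 in WT LSK FLT3-, and Itgam lay at 2.77, 2.73 and 2.87 in these groups. Of 13 granulocyte and monocyte progenitor genes, 1 was higher in E2A-KO LMPP than in WT LMPP (Prtn3, set aside by name) and 1 was lower (Csf1r). The median of these 13 was -0.03. Elane, Ctsg and Ms4a3 had the same order of groups as Hp and, like Hp, did not pass between the LMPP genotypes. Within the S100 family and annexins, 14 genes measured, S100a4 and S100a6 were higher in E2A-KO LMPP than in WT LMPP, and S100a8 and S100a9 were lower. Of 13 NK and dendritic cell genes, Nkg7 was the only one that passed between the LMPP genotypes, and of 11 T lineage genes it was Thy1. The T lineage genes averaged 4.52 and 4.59 in E2A-KO LMPP, 4.45 and 4.47 in WT LMPP, and 4.47 and 4.44 in WT LSK FLT3-, and the NK and dendritic cell genes 5.93 and 5.82, 5.99 and 5.90, and 4.90 and 5.03. Neither mean was lowest in WT LMPP on both of its arrays.

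**Figure D3:**
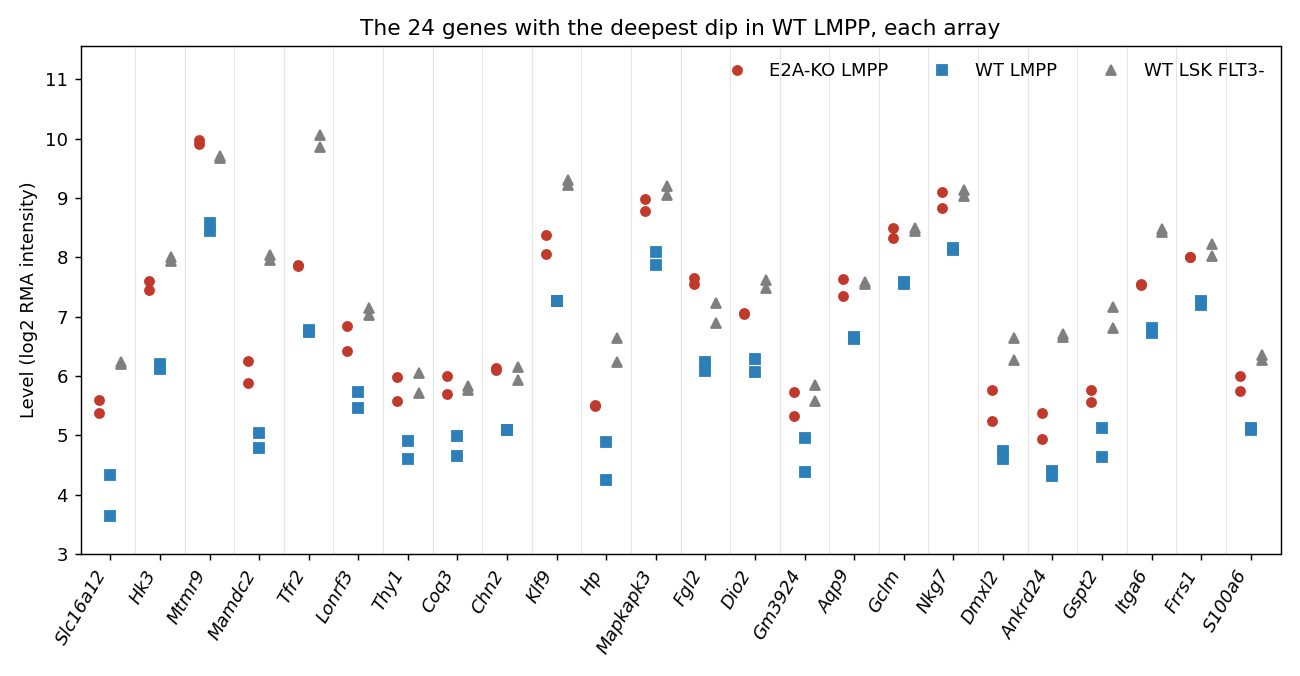
Log2 level on each array of the 24 members with the largest smaller difference from WT LMPP, in that order from left, with E2A-KO LMPP as circles, WT LMPP as squares and WT LSK FLT3- as triangles. The WT LMPP squares lie lowest in each gene by the rule, and the E2A-KO LMPP circles lie level with the WT LSK FLT3- triangles in genes such as Thy1, Coq3 and Gclm and well below them in Tfr2, Mamdc2 and Ankrd24.

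Transporters and channels gave 7 members. Slc16a12 and Spns2 were lower in E2A-KO LMPP than in WT LSK FLT3- (46.5% of genes of like level were) and 5 did not pass. With quantile normalization it was Spns2 alone, and the median of the 7 was 0.28 against -0.08 as deposited. Slc16a12, a monocarboxylate transporter family member that carries creatine, had the deepest dip of all 111 members. It had 5.60 and 5.39 in E2A-KO LMPP, 4.33 and 3.64 in WT LMPP, and 6.24 and 6.20 in WT LSK FLT3- (log2 level), and at 2.84-fold above WT LMPP the E2A-KO LMPP arrays were still below WT LSK FLT3- (-0.73, SE 0.21, adjusted p = 0.0256). In WT LMPP the 2 arrays lay on both sides of the array median, so the size of the dip is loosely measured. Aqp9, a channel for water and glycerol in white blood cells and liver, had 7.64 and 7.35 in E2A-KO LMPP, 6.63 and 6.66 in WT LMPP, and 7.58 and 7.55 in WT LSK FLT3-. Its E2A-KO LMPP and WT LSK FLT3- arrays overlapped (-0.08, adjusted p = 0.695).
Spns2, the exporter of sphingosine phosphate, averaged 8.39, 7.89 and 9.38 in E2A-KO LMPP, WT LMPP and WT LSK FLT3-, a difference of -0.99 (SE 0.13, adjusted p = 0.000697) from WT LSK FLT3-. The phosphate transporter gene Slc20a2 (6.61, 6.05 and 6.76), the mitochondrial serine carrier gene Sfxn1 (9.58, 9.06 and 9.60), Slc35f2 (5.24, 4.45 and 5.03) and the potassium channel gene Kcnh2 (5.23, 4.57 and 5.14), given in the same order of groups, differed between E2A-KO LMPP and WT LSK FLT3- by -0.15, -0.02, 0.21 and 0.09, none of which passed.

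Metabolic enzymes were the largest role, with 20 members. Against WT LSK FLT3-, 9 were lower in E2A-KO LMPP (46.5% of genes of like level), 0 were higher and 11 did not pass. With quantile normalization 2 were lower, Hsd3b7 and Acyp2, and the median of the 20 was 0.04 against -0.38 as deposited. Hk3, the hexokinase of myeloid cells, had 7.61 and 7.45 in E2A-KO LMPP, 6.20 and 6.13 in WT LMPP, and 7.93 and 8.01 in WT LSK FLT3- (log2 level). It was 2.58-fold higher in E2A-KO LMPP than in WT LMPP and a little lower than in WT LSK FLT3- (-0.44, SE 0.13, adjusted p = 0.0281), and a further Hk3 probe set also met the rule, at 7.07 and 7.09 in E2A-KO LMPP, 6.18 and 6.40 in WT LMPP, and 7.09 and 7.07 in WT LSK FLT3-. On that probe set E2A-KO LMPP and WT LSK FLT3- had the same level.
Gclm, the modifier subunit of the enzyme that starts glutathione synthesis, had 8.32 and 8.50 in E2A-KO LMPP, 7.58 and 7.55 in WT LMPP, and 8.49 and 8.44 in WT LSK FLT3-. Coq3, a methyltransferase of ubiquinone synthesis, had 5.69 and 6.00 in E2A-KO LMPP, 4.99 and 4.66 in WT LMPP, and 5.76 and 5.83 in WT LSK FLT3-. In both genes the E2A-KO LMPP arrays lay on both sides of the WT LSK FLT3- arrays, with differences of -0.06 and 0.05 that did not pass (adjusted p = 0.739 and 0.823).
Dio2, the deiodinase that activates thyroid hormone, had 7.04 and 7.05 in E2A-KO LMPP, 6.06 and 6.29 in WT LMPP, and 7.62 and 7.48 in WT LSK FLT3-. Its E2A-KO LMPP arrays lay below those of WT LSK FLT3-, a difference of -0.50 (SE 0.14, adjusted p = 0.0206). Frrs1, a ferric reductase, had 8.0 and 8.01 in E2A-KO LMPP, 7.27 and 7.19 in WT LMPP, and 8.23 and 8.02 in WT LSK FLT3-. The E2A-KO LMPP arrays lay just below those of WT LSK FLT3- (-0.12, adjusted p = 0.494).
Hsd3b7, a steroid dehydrogenase of bile acid synthesis, was the enzyme with the largest gap. It had 8.18 and 8.14 in E2A-KO LMPP, 7.69 and 7.47 in WT LMPP, and 9.55 and 9.48 in WT LSK FLT3-, a difference of -1.36 (SE 0.14, adjusted p = 0.000221), and the E2A-KO LMPP arrays lay nearer to those of WT LMPP.
Enzymes of amino acid metabolism included Asns, the asparagine synthetase, which averaged 6.56, 5.96 and 7.31 in E2A-KO LMPP, WT LMPP and WT LSK FLT3- and was lower in E2A-KO LMPP than in WT LSK FLT3-, at -0.74 (SE 0.13, adjusted p = 0.00334). Glul, the glutamine synthetase, averaged 10.66, 10.02 and 10.67, and Gatm, which makes the precursor of creatine, 6.85, 6.23 and 7.22. Glul was one of the brightest members, with a difference of -0.01 between E2A-KO LMPP and WT LSK FLT3-.
The other enzymes lower in E2A-KO LMPP than in WT LSK FLT3- were Acyp2 (-1.32), an acylphosphatase, Comtd1 (-0.75), Maoa (-0.56), a monoamine oxidase, Gmds (-0.54), of fucose synthesis, and Galnt12 (-0.48), which starts O-linked glycans, with adjusted p of 0.00166, 0.00864, 0.0104, 0.0139 and 0.0346. A further 6 enzymes did not pass, namely the glycolytic mutase gene Pgam1 (-0.04), the propionyl-CoA carboxylase gene Pccb (0.04), the reductase genes Cyb5r1 (-0.15) and Akr1c13 (-0.40), the acyl-CoA thioesterase gene Acot1 (-0.05) and the nucleotide hydrolase gene Nudt16 (0.03). Akr1c13 and Acot1 have close paralogs, and probes that read both cannot tell them apart.

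Signalling genes gave 15 members. Of them, 8 were lower in E2A-KO LMPP than in WT LSK FLT3- (46.5% of genes of like level) and 7 did not pass. With quantile normalization 5 were lower, Arrdc4, Prkg1, Rras2, Mylk and Ptpn12, and 2 were higher, Mtmr9 and Chn2. Mtmr9, a myotubularin-related protein without phosphatase activity of its own, had 9.97 and 9.91 in E2A-KO LMPP, 8.45 and 8.58 in WT LMPP, and 9.67 and 9.71 in WT LSK FLT3- (log2 level). It was 2.69-fold higher in E2A-KO LMPP than in WT LMPP, its E2A-KO LMPP arrays were also above those of WT LSK FLT3-, but that difference of 0.25 did not pass (adjusted p = 0.155), while with quantile normalization it was 0.51 (adjusted p = 0.0222). Another pair of Mtmr9 probe sets met the rule as well, with means of 9.34 and 8.96 in E2A-KO LMPP, 8.52 and 8.12 in WT LMPP, and 9.09 and 8.78 in WT LSK FLT3-.
Chn2, a chimaerin that turns off the GTPase Rac, had 6.13 and 6.10 in E2A-KO LMPP, 5.09 and 5.09 in WT LMPP, and 5.93 and 6.15 in WT LSK FLT3-. The WT LMPP arrays gave the same value to 2 decimals, and E2A-KO LMPP differed from WT LSK FLT3- by 0.07 (adjusted p = 0.70). Mapkapk3, a kinase downstream of stress-activated MAP kinases, had 8.99 and 8.78 in E2A-KO LMPP, 8.08 and 7.86 in WT LMPP, and 9.21 and 9.04 in WT LSK FLT3-, with the E2A-KO LMPP arrays below those of WT LSK FLT3-, a difference of -0.24 that did not pass (adjusted p = 0.222).
Arrdc4, an arrestin-domain protein, had 5.52 and 5.53 in E2A-KO LMPP, 5.0 and 4.99 in WT LMPP, and 7.05 and 6.78 in WT LSK FLT3-, a difference of -1.39 (SE 0.14, adjusted p = 0.000219) from WT LSK FLT3-. Prkg1, the kinase activated by cyclic GMP, had 6.12 and 6.45 in E2A-KO LMPP, 5.63 and 5.80 in WT LMPP, and 7.52 and 7.77 in WT LSK FLT3-, a difference of -1.36 (SE 0.16, adjusted p = 0.000523). In both genes E2A-KO LMPP lay closer to WT LMPP. A further Prkg1 probe set put the LMPP genotypes level, both under 5 (4.32 in E2A-KO LMPP, 4.29 in WT LMPP and 7.23 in WT LSK FLT3-).
Rras2, a Ras-related GTPase, the myosin kinase gene Mylk, Arhgap6, the Rac activator gene Dock1 and the tyrosine phosphatase gene Ptpn12 were lower in E2A-KO LMPP than in WT LSK FLT3-, with differences of -1.10, -1.18, -0.88, -0.83 and -0.78 (adjusted p = 0.00046, 0.00434, 0.00656, 0.00893 and 0.00339). Phpt1, a histidine phosphatase, was too (-0.89, adjusted p = 0.0466), but its E2A-KO LMPP arrays lay at 6.14 and 7.10 and its upper WT LMPP array at 6.10. Dock5 (-0.25), the lipid kinase gene Pi4k2b (-0.30), Camk1 (-0.48) and Tnip2 (-0.19), an inhibitor of NF-kappa-B signalling, did not pass.

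**Figure D4:**
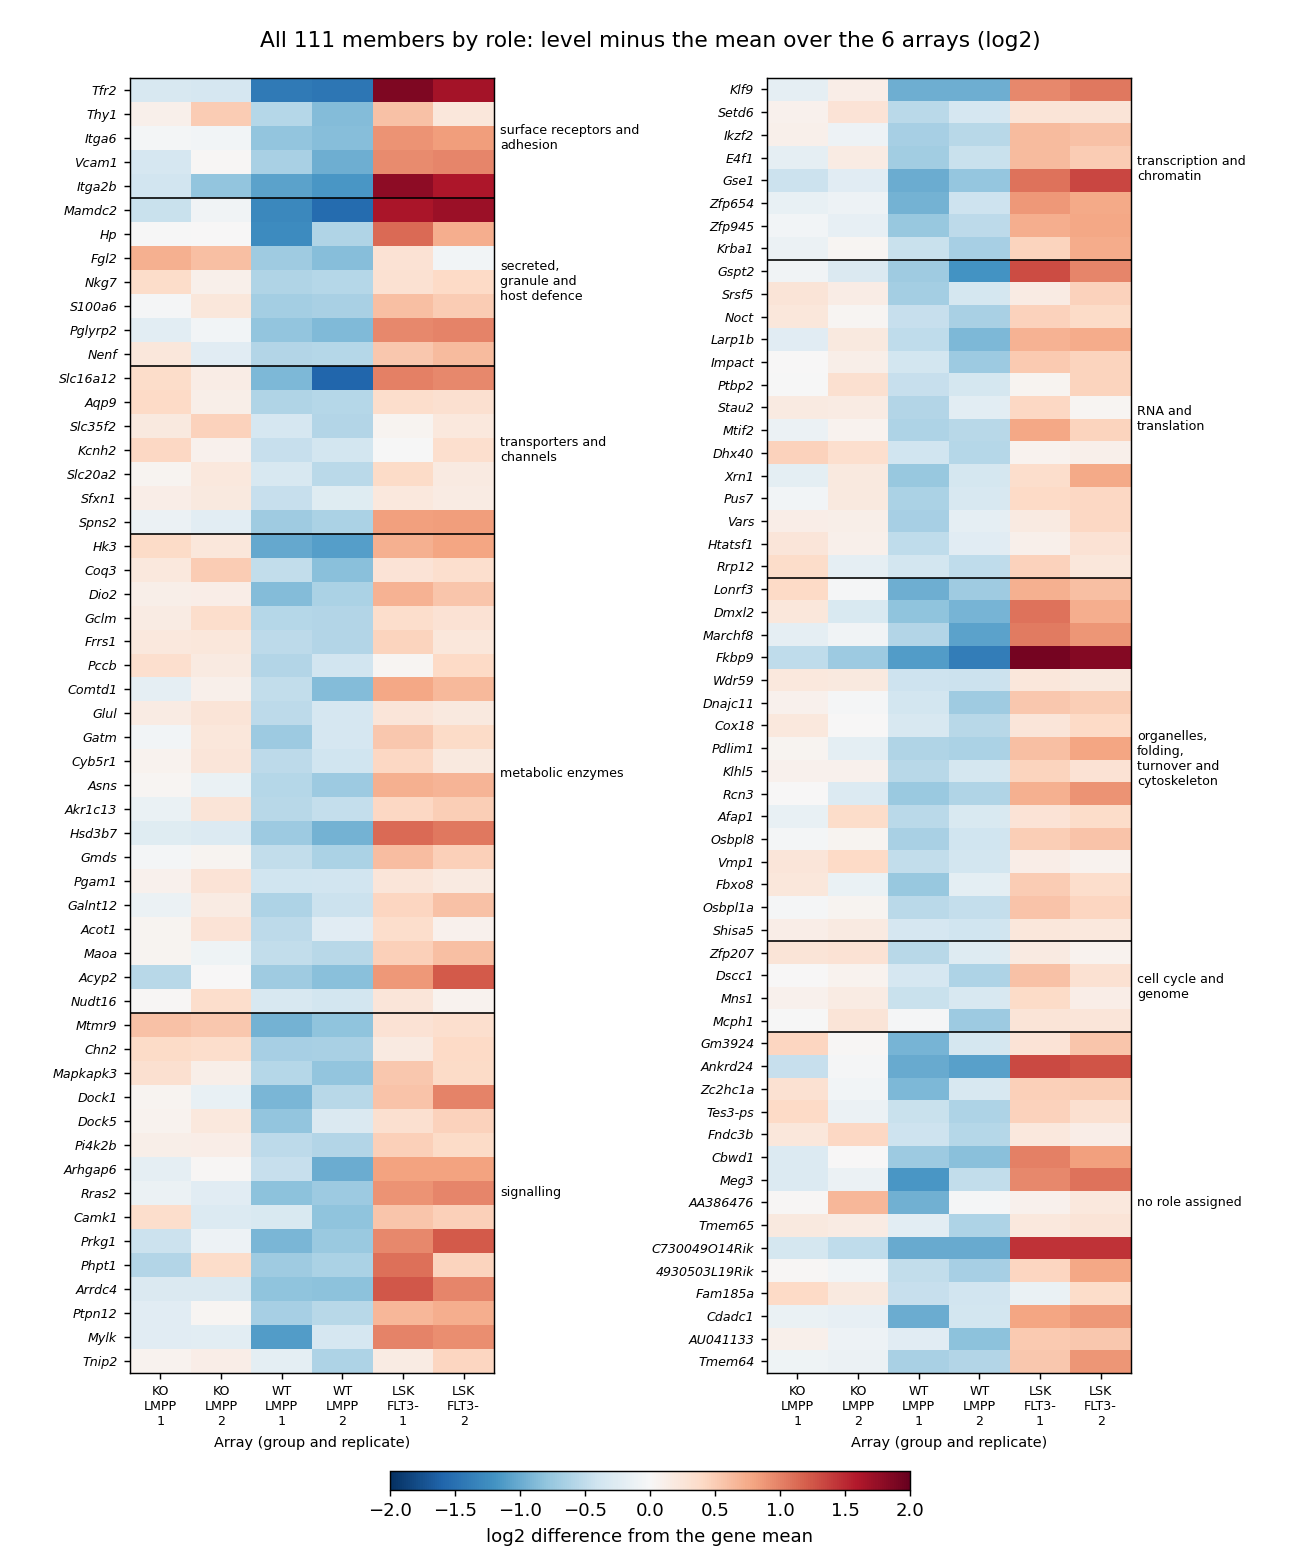
Level of each of the 111 members on the 6 arrays minus the gene's mean over them (log2, red above and blue below), grouped by role. The WT LMPP columns are blue or near white by the rule, and the WT LSK FLT3- columns are the reddest in most surface, transcription and signalling genes, while in genes such as Fgl2, Mtmr9 and Dhx40 the E2A-KO LMPP columns are the reddest.

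Of 8 transcription and chromatin genes, 7 were lower in E2A-KO LMPP than in WT LSK FLT3- and 1 did not pass, where 46.5% of genes of like level were called lower. With quantile normalization 3 were lower, Gse1, Klf9 and Zfp945. Klf9, a zinc finger factor of the Krüppel-like family that glucocorticoids induce, had 8.06 and 8.38 in E2A-KO LMPP, 7.27 and 7.27 in WT LMPP, and 9.22 and 9.30 in WT LSK FLT3- (log2 level). E2A-KO LMPP lay near the middle between the other groups, with a difference of -1.04 (SE 0.14, adjusted p = 0.00107) from WT LSK FLT3-. Both further Klf9 probe sets with levels above 5 met the rule too. Gse1, a coiled-coil protein found with histone demethylase complexes, had 6.94 and 7.15 in E2A-KO LMPP, 6.37 and 6.60 in WT LMPP, and 8.46 and 8.70 in WT LSK FLT3-, a difference of -1.54 (SE 0.15, adjusted p = 0.000232). Ikzf2, which encodes Helios of the Ikaros family, averaged 8.71, 8.10 and 9.32 in E2A-KO LMPP, WT LMPP and WT LSK FLT3-, a difference of -0.61 (SE 0.14, adjusted p = 0.00887).
A second Ikzf2 probe set met the rule but put E2A-KO LMPP on top, with 5.77 and 6.98 in E2A-KO LMPP, 4.67 and 4.47 in WT LMPP, and 5.30 and 5.29 in WT LSK FLT3-, so the probe sets of Ikzf2 disagree on the order of the upper groups. E4f1, Zfp654, Zfp945 and Krba1, genes of zinc finger or KRAB-type proteins, were lower in E2A-KO LMPP than in WT LSK FLT3-, with differences of -0.57, -0.94, -0.85 and -0.63 (adjusted p = 0.0237, 0.00425, 0.00205 and 0.0124). The lysine methyltransferase gene Setd6 did not pass (-0.09).
Of 9 E protein and Id genes, which hold the targeted Tcf3, 0 were members. Tcf3 averaged 6.66 in E2A-KO LMPP, 6.90 in WT LMPP and 7.34 in WT LSK FLT3- and did not pass between the LMPP genotypes. The place of its probe set relative to the targeted part of the gene is unknown here, so it does not check the labels. Id2, an inhibitor of E proteins, had the opposite shape to the members, at 6.36, 7.74 and 6.16 in the same order.

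RNA processing and translation gave 14 members, and here 11 of 14 did not pass between E2A-KO LMPP and WT LSK FLT3-, with a median difference of -0.27 (0.10 with quantile normalization, where Gspt2 was lower and Dhx40 higher). Gspt2, a translation release factor, had the largest gap. It had 5.77 and 5.55 in E2A-KO LMPP, 5.13 and 4.64 in WT LMPP, and 7.16 and 6.81 in WT LSK FLT3- (log2 level), a difference of -1.32 (SE 0.19, adjusted p = 0.00134). Larp1b, an RNA-binding protein (-0.74, adjusted p = 0.0141), and Mtif2, a mitochondrial translation initiation factor (-0.64, adjusted p = 0.0116), were also lower.
Dhx40, an RNA helicase of the DEAH-box family, averaged 6.96, 6.08 and 6.64 in E2A-KO LMPP, WT LMPP and WT LSK FLT3-. E2A-KO LMPP was above WT LSK FLT3- by 0.32, which did not pass (adjusted p = 0.0875) and with quantile normalization did (0.77, adjusted p = 0.00624). The splicing factor gene Srsf5, bright on all arrays, averaged 9.90, 9.19 and 10.01, and the splicing repressor gene Ptbp2 7.06, 6.50 and 7.16.
The remaining members of the group were Stau2, which carries mRNA, the exonuclease gene Xrn1, Pus7, which makes pseudouridine, the splicing-linked gene Htatsf1, Rrp12, of ribosome assembly, the circadian gene Noct, the valine tRNA synthetase gene Vars, and Impact, an inhibitor of the amino acid sensor GCN2. Their differences from WT LSK FLT3- lay between -0.56 for Xrn1 and -0.02 for Htatsf1, and they were 0.53 to 0.69 above WT LMPP (log2).

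Genes of organelles, protein folding, turnover and the cytoskeleton gave 16 members. Against WT LSK FLT3-, 8, Fkbp9 among them, were lower in E2A-KO LMPP (46.5% of genes of like level). With quantile normalization Fkbp9, Marchf8 and Rcn3 were lower and Vmp1 was higher. Lonrf3, a RING finger protein, had 6.84 and 6.42 in E2A-KO LMPP, 5.46 and 5.73 in WT LMPP, and 7.15 and 7.04 in WT LSK FLT3- (log2 level). Its E2A-KO LMPP arrays lay below those of WT LSK FLT3-, a difference of -0.46 that did not pass (adjusted p = 0.0657). Dmxl2, a regulator of the vacuolar proton pump, had 5.77 and 5.24 in E2A-KO LMPP, 4.74 and 4.61 in WT LMPP, and 6.64 and 6.27 in WT LSK FLT3-, a difference of -0.95 (SE 0.20, adjusted p = 0.0067).
The membrane ubiquitin ligase gene Marchf8, the reticulum calcium-binding gene Rcn3, the LIM protein gene Pdlim1, the oxysterol-binding protein genes Osbpl8 and Osbpl1a and the mitochondrial chaperone gene Dnajc11 were lower, with differences of -1.09, -0.94, -0.76, -0.52, -0.48 and -0.48 (adjusted p = 0.00198, 0.00201, 0.00405, 0.0182, 0.0187 and 0.0325). Vmp1, a membrane protein of autophagy, averaged 8.77, 8.01 and 8.54 in E2A-KO LMPP, WT LMPP and WT LSK FLT3- and did not pass (0.22, adjusted p = 0.208), nor did the actin filament gene Afap1 (-0.20), Klhl5 (-0.28), the mitochondrial insertase gene Cox18 (-0.21), Fbxo8 (-0.39), Shisa5 (-0.06) and Wdr59 (-0.01), whose product belongs to a nutrient-sensing complex. Shisa5 was the brightest member, at 11.09, 10.57 and 11.15 in the same order of groups.

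The cell cycle and genome group held 4 members, and none of them passed against WT LSK FLT3- (limma; 1, Dscc1, had an unadjusted p under 0.05), while with quantile normalization Zfp207 was higher (0.51, adjusted p = 0.0328). They were Zfp207, of spindle assembly (8.55, 7.88 and 8.41 in E2A-KO LMPP, WT LMPP and WT LSK FLT3-), Dscc1, of sister chromatid cohesion (7.27, 6.76 and 7.68), Mcph1, the microcephalin gene (6.00, 5.50 and 6.13), and Mns1 (6.44, 5.94 and 6.58). Mcph1 had the narrowest gap of all members, with 0.01 (log2) between its upper WT LMPP array and the lowest other array, and Camk1, Phpt1, AA386476 and Fbxo8 had gaps of 0.03 to 0.06. For Zfp207, 1 of 3 further probe sets with levels above 5 put the LMPP genotypes level (7.55 in E2A-KO LMPP and 7.54 in WT LMPP, against 9.01 in WT LSK FLT3-), and another put WT LMPP level with WT LSK FLT3- (8.25 in E2A-KO LMPP, 7.72 in WT LMPP and 7.73 in WT LSK FLT3-).

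No role was assigned to 15 members, of which 7 were lower in E2A-KO LMPP than in WT LSK FLT3- (46.5% of genes of like level). With quantile normalization 4 were lower, C730049O14Rik, Ankrd24, Meg3 and Cbwd1, and 2 were higher, Fndc3b and Fam185a. Ankrd24, an ankyrin repeat gene, had 4.95 and 5.37 in E2A-KO LMPP, 4.40 and 4.31 in WT LMPP, and 6.72 and 6.67 in WT LSK FLT3- (log2 level), a difference of -1.53 (SE 0.16, adjusted p = 0.000297) that was not past the threshold with the mean of all probe sets of the gene (adjusted p = 0.0605). A further Ankrd24 probe set had no dip and was lowest in WT LSK FLT3- (5.22 in E2A-KO LMPP, 5.25 in WT LMPP and 4.88 in WT LSK FLT3-). Gm3924 had 5.73 and 5.33 in E2A-KO LMPP, 4.38 and 4.95 in WT LMPP, and 5.58 and 5.85 in WT LSK FLT3-, with overlapping upper groups. Meg3, an imprinted noncoding RNA that is high in long-term stem cells, averaged 5.14, 4.50 and 6.36 in E2A-KO LMPP, WT LMPP and WT LSK FLT3-, a difference of -1.22 (SE 0.21, adjusted p = 0.00263). The Meg3 probe sets disagreed on the upper groups. A further one with levels above 5 averaged 5.38, 4.87 and 5.24 in the same order, with E2A-KO LMPP on top. Another, under 5 in both LMPP groups, averaged 4.02, 3.43 and 5.34, and most others had no such dip.
Besides C730049O14Rik, the others that were lower were Cbwd1 (-1.05), Cdadc1 (-0.97), Tmem64 (-0.81) and 4930503L19Rik (-0.62), with adjusted p of 0.00109, 0.00547, 0.00367 and 0.0138. Fndc3b (0.15), Zc2hc1a (-0.36), Tmem65 (-0.05), Fam185a (0.18), AA386476 (0.20), AU041133 (-0.54) and the pseudogene Tes3-ps (-0.25) did not pass.

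Other probe sets gave a further view of the same RNA on the same arrays. Of the 111 members, 65 had at least 1 other single-symbol probe set, 111 in all, and in 59 of these the WT LMPP mean was below both other means, where 24.6% of all probe sets had that order. Among the 32 other probe sets with E2A-KO LMPP and WT LSK FLT3- means above 5, 28 had it, and 14, in 12 genes, met the whole rule. That filter asks for a level only in the groups where the members are high, which favours this order. The share of all probe sets under the same filter was not computed, so the 28 of 32 are a description only. The 12 genes were Asns, Fkbp9, Gclm, Glul, Hk3, Ikzf2, Itga6, Klf9, Mtmr9, Osbpl1a, Ptpn12 and Tfr2. Dnajc11, Dock5, Impact and Stau2 each had a further probe set with E2A-KO LMPP and WT LSK FLT3- levels above 5 but no dip. Some of the 28 had the order only narrowly. A further Tmem64 probe set averaged 6.92, 6.90 and 8.03 in E2A-KO LMPP, WT LMPP and WT LSK FLT3-, and one of Nudt16 6.00, 5.95 and 6.22. The probe sets read for Hk3, Tfr2, Arhgap6, Meg3 and Fkbp9 are of the _x_at kind, in which some probes also match other transcripts.

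In gene order on GRCm38.p6, some members lay close to each other. Fgl2 and Fam185a were next to each other among protein-coding genes, as were Rrp12 and Pgam1, and Osbpl1a and Impact. Klf9 and Mamdc2 had 1 gene between them, and Vmp1 and Dhx40, and Ptpn12 and Fgl2, had 2. Neither the spread of members over chromosomes nor this closeness was tested.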

How the data were processed

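Sorted cells were lysed directly, and RNA was amplified in 2 rounds and hybridised as biotin-labelled cRNA to Affymetrix arrays, per the labels' protocols. Such amplification favours transcript 3′ ends. The authors deposited linear intensity values, 1 for each probe set, from RMA (per the submitters' processing notes, version not given). It is unknown here whether 1 RMA run covered all arrays. Log2 was taken of the deposited intensity values.

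Of 45101 probe sets, 34958 had 1 gene symbol in GEO's platform annotation, 932 several and 9211 none; the single-symbol probe set with the highest mean stood for each of 18194 genes. limma 3.58.1 (R 4.3.3) fitted 1 mean per group over all 6 arrays, with Benjamini-Hochberg adjustment over all genes and a threshold of 0.05. Array number limits the precision. The fitting code was checked on simulated data with the same spread for every gene. The arrays do not have that, so it is no measure of power for the members. Samples were grouped by title. Replicate numbers did not pair arrays: same-numbered deviations correlated at 0.01, -0.01 and -0.04.

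Members and gene lists were chosen with earlier results of these data known, and roles were assigned with the membership known. Every member is named; values per array are given for the 24 with the largest smaller difference and for up to 10 per direction past the threshold between E2A-KO LMPP and WT LSK FLT3-. Alternatives covered scaling, dim genes, probe set choice, variance estimation, the replicate block, each array left out, and the rule's thresholds.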

Additional observations from a re-analysis of the deposited data

How the results depend on the processing

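All 3 median member differences kept their sign under the alternatives listed here. In the 2 comparisons that involve WT LMPP the rule had chosen the members by that sign, so its persistence there is no test. The rule left the sign of the remaining median, E2A-KO LMPP minus WT LSK FLT3-, free. With quantile normalization that median was only -0.036, with 49 members above 0 and 62 below, so its direction there is weak. With quantile normalization, genes called were 3617 in E2A-KO LMPP against WT LSK FLT3- (6822 as deposited) and 3496 in WT LMPP against WT LSK FLT3- (6198), members lower and higher in the first were 25 and 8, and the member medians were -0.036 and -0.80. With a gene's probe sets averaged these medians were -0.26 and -0.82, and 2 members were higher; with arrays centred on their medians 0 were higher. With a variance trend and robust estimation, 548 genes (250) and 56 members (26) were called in E2A-KO LMPP against WT LMPP, and 2 members were higher against WT LSK FLT3-. Only the 4 LMPP arrays gave 89 genes and 5 members. Leaving out 1 array at a time gave 89 to 164 genes and 5 to 12 members in E2A-KO LMPP against WT LMPP, 2370 to 6410 genes in WT LMPP against WT LSK FLT3-, and 2944 to 7515 genes, 31 to 56 members lower and 0 to 1 higher in E2A-KO LMPP against WT LSK FLT3-. Each array left out lowers the residual degrees of freedom, and a lone array is then assumed to vary like the other groups. With the replicate number as a block, 200, 5914 and 6535 genes were called, and 21 members were higher in E2A-KO LMPP than in WT LMPP, 109 lower in WT LMPP than in WT LSK FLT3-, and 54 lower in E2A-KO LMPP than in WT LSK FLT3-. The rule gave 203 genes at a minimum difference of 0.4, 29 at 0.7, 69 at a minimum level of 6, 107 with quantile normalization (85 of the 111 members among them), 102 with centred arrays (95 of the 111) and 63 with probe sets averaged (59 of the 111), and the cause of that last loss was not tested. Counted as pairs of a gene and an alternative, the 10 lowest members and Fgl2 kept their call in E2A-KO LMPP against WT LSK FLT3- in 138 and lost it in 5, those of Ankrd24 and Fgl2. The 24 deepest members stayed on the same side of the threshold in 202, passed it in 10 and lost it in 100 in E2A-KO LMPP against WT LMPP, and in 309, 0 and 3 (Dio2, Fgl2 and Gm3924) in WT LMPP against WT LSK FLT3-. Of the 54 members called in E2A-KO LMPP against WT LSK FLT3-, 26 kept their call with quantile normalization and 31 without WT LSK FLT3- replicate 2. In WT LMPP 33 members had a mean under 5, where differences may be understated, which was not tested.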
